A study of Xenopus laevis with 12 samples.

Results

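One day after an optic nerve crush, the ribosome-bound RNA of the crushed eye was set against that of every other eye taken on the same day. The comparison rests on 4 of the series' 12 libraries: 1 of the crushed eye and 3 of uncrushed eyes. The animals were Xenopus laevis frogs past metamorphosis, over 6 months old, that carried Tg(islet2b:EGFP-RPL10a). This transgene puts an EGFP-tagged ribosomal protein under an islet2b promoter active in retinal ganglion cells, so that antibodies against EGFP recover the RNA on the ribosomes of these cells (translating ribosome affinity purification, TRAP). The frogs were the offspring of single founder females, all frogs of the 4 libraries carried the transgene, and the labels name no other allele. The crushed group is the right eye of frogs whose right optic nerve was crushed. Its partners are the contralateral left eye of the same frogs, whose nerve was not treated, and the right and left eyes of frogs that had sham surgery without a crush. The labels place the crush on the right and were followed, although the design text gives the left side in 1 place. RNA of 3 independent biological replicates was pooled into each library, so each condition is 1 library. No difference has a replicate check of its own, and the spread among the 3 uncrushed eyes holds differences of side and surgery as well as noise. Genes were counted as outside the range when their level in the crushed eye lay above or below that of all 3 other eyes and they had at least 200 counts over the 4 libraries, which 21673 of 45099 gene models had.

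Retinal ganglion cells send the axons of the optic nerve, and in frogs, unlike in mammals, a crushed optic nerve grows back. In injured neurons of many species, an alarm travels from the cut axon to the nucleus through stress kinases such as JNK, which phosphorylate the transcription factor Jun. Jun family proteins pair with each other, with Fos proteins or with ATF3 to form AP-1 dimers, and these are among the first regulators to appear in axotomised neurons. Cytokine signals through JAK and STAT and their feedback inhibitors of the SOCS family are a second arm of the response in the retina.

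Depth was 49796016 counts in the crushed eye, 55517533 in the contralateral eye, 16978152 in the sham right eye and 59265354 in the sham left eye. Levels are given as CPM, the counts scaled by TMM to libraries of 1000000 counts, and log2 values had 2 counts added. A count was found for 30080 gene models in the crushed eye, against 29293, 28970 and 28835 in the contralateral, sham right and sham left eyes. Ganglion cell markers were abundant in all 4 libraries, with summed levels of 15780 CPM in the crushed eye and 16200, 16040 and 16580 CPM in the contralateral, sham right and sham left eyes. Of their 26 measured models, 8 (30.8%) lay above and 11 (42.3%) below the other eyes, against 26.1% and 26.5% of all genes. The median log2 difference was -0.01. The neurofilament gene nefl.L, for example, had 292 CPM in the crushed eye, against 278 in the contralateral eye, 280.0 in the sham right eye and 278 in the sham left eye. rbpms2.L lay on the other side, with 2969 CPM in the crushed eye, against 3137 in the contralateral eye, 3267 in the sham right eye and 3453 in the sham left eye. The summed level of ganglion cell markers was thus similar in the 4 libraries, with members on both sides.

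The crushed eye differed little from the other 3 in size of change. It lay above all 3 for 5655 genes (26.1%) and below all 3 for 5742 genes (26.5%), which are small differences for the most part. Some eye is the highest of the 4 for every gene, so the average share per eye is 25% in each direction, and the shares of the crushed eye lay near it. By more than 1.5-fold, 349 genes (1.61%) lay above and 259 (1.2%) below, and by more than 2-fold, 59 (0.272%) lay above and 62 (0.286%) below. Against the contralateral eye alone, 265 of 20006 genes (1.32%) were higher by more than 2-fold at day 1 and 152 (0.76%) lower. Between the sham eyes, where no nerve was crushed, 85 of 18542 genes (0.458%) were higher on the right than on the left by more than 2-fold and 167 (0.901%) lower. The same crushed over contralateral ratio passed 2-fold for 1450 genes higher (8.18%) and 973 lower (5.49%) at day 3, for 3797 (20.7%) and 2745 (14.9%) at day 7, and for 3748 (19.6%) and 3704 (19.3%) at day 11.

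**Figure D1:**
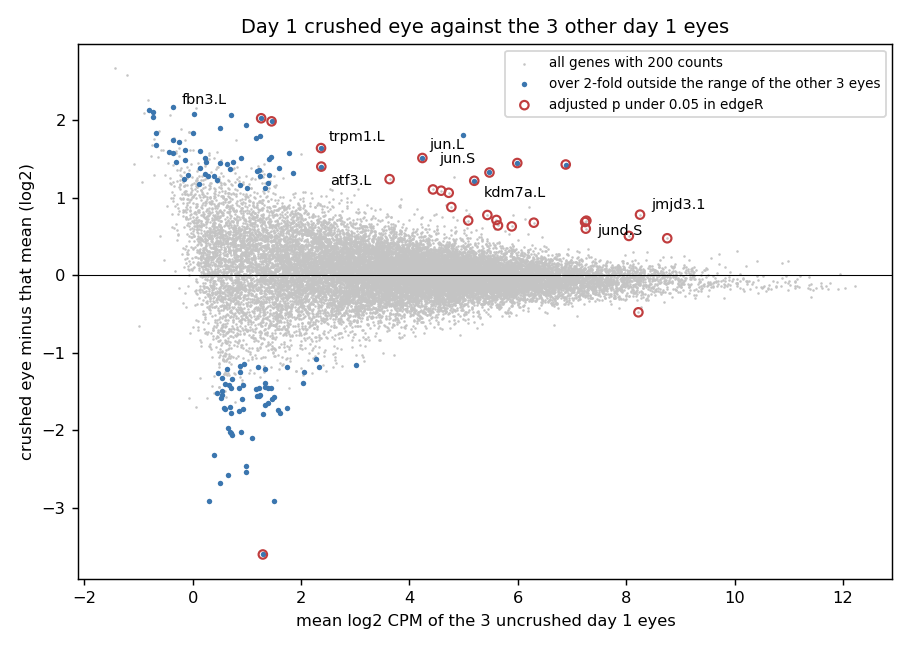
Each point is 1 of 21673 genes; the x axis is its mean log2 CPM in the 3 uncrushed day 1 eyes, and the y axis is the log2 difference of the crushed eye from that mean. Blue points are the 59 genes over 2-fold above and the 62 over 2-fold below the range of the other eyes, and red rings are the 28 genes past the edgeR threshold with at least 200 counts, 26 of them above 0.

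As a second description, edgeR's quasi-likelihood F test over all genes, on the crushed eye against the 3 others, called 28 of 28630 genes at an adjusted p under 0.05. Of these, 26 rose (0.0908%) and 2 fell (0.00699%), and 1818 genes had an unadjusted p under 0.05, 843 of them higher and 975 lower. Of the 28, 14 carry a gene symbol. The fit takes the 3 uncrushed eyes as 1 group and assumes that the lone crushed library varies as they do. It uses the same 4 libraries as the range, so it is no test on replicates of the crush and no independent support. An adjusted p then sets this 1 library against the spread of the 3 uncrushed eyes, and "rose" and "fell" are used in that sense. With the frog pool as a block, which compares the eyes of the same frogs and leaves 1 residual degree of freedom, edgeR called 17 genes higher and 0 lower. It gave 1694 genes an unadjusted p under 0.05, and 9 of the 28 were among the 17. DESeq2 without the block called 29 higher and 11 lower. Without the contralateral, sham right or sham left eye, 17, 47 and 19 genes rose and 1, 1 and 2 fell, and 12 of the 28 passed in each of these 3 fits.

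Of the 26 genes that rose, 5 were of the Jun family, and jun.S had the lowest adjusted p in edgeR (1.31e-07). jun.S, a copy of the gene for the core AP-1 subunit, had 112 CPM in the crushed eye, against 43.7 in the contralateral eye, 49.5 in the sham right eye and 40.7 in the sham left eye. The crushed eye stood clear of the other 3, whose values lay close together, and the edgeR log2 fold change was 1.33 ± 0.13 (adjusted p = 1.31e-07). Its homeolog jun.L, from the ancestral genome duplication of this frog, had 53.8 CPM in the crushed eye, against 15.97 in the contralateral eye, 25.5 in the sham right eye and 16.4 in the sham left eye (edgeR log2 fold change 1.503 ± 0.19, adjusted p = 0.000168). Here the sham right eye was the highest of the uncrushed eyes, and the crushed eye was 2.11-fold (95% counting interval 1.903 to 2.34) above it. Both copies stayed higher in the crushed eye in the alternative fits that kept them apart. With the frog pool as a block, the edgeR log2 fold change was 1.35 ± 0.16 for jun.S and 1.75 ± 0.24 for jun.L. The fit with the copies summed merged them into 1 gene and tells nothing of either copy alone. All 9 alternative fits hold the same crushed library, so they are no independent support. The summed level of the 17 models of AP-1 and ATF3 genes was 857.9 CPM in the crushed eye and 517.9, 530.7 and 479.9 CPM in the contralateral, sham right and sham left eyes.

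jund.S and jund.L, whose product is the Jun protein most often present in resting cells, rose as well, from levels that were already high. jund.S had 250.1 CPM in the crushed eye, against 163 in the contralateral eye, 155 in the sham right eye and 144 in the sham left eye, with an edgeR log2 fold change of 0.70 ± 0.10 (adjusted p = 0.000181). jund.L had 125 CPM in the crushed eye, against 83.9 in the contralateral eye, 75.7 in the sham right eye and 75.98 in the sham left eye (edgeR log2 fold change 0.67 ± 0.11, adjusted p = 0.00229). The 2 copies thus moved by similar amounts, and the uncrushed eyes differed little among themselves.

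junb.1, a model of the third Jun gene, had 46.5 CPM in the crushed eye against 20.9, 27.2 and 17.6 CPM in the contralateral, sham right and sham left eyes (edgeR log2 fold change 1.100 ± 0.18, adjusted p = 0.00239). Another junb model, junb.L, had 67.8 CPM in the crushed eye against 24.1, 39.9 and 23.3 CPM in the contralateral, sham right and sham left eyes, above all 3 others but past no threshold (edgeR adjusted p = 0.196). In both the sham right eye was the highest of the uncrushed eyes. atf3.L, a copy of the stress-induced gene whose product pairs with Jun, had 13.6 CPM in the crushed eye, against 4.36 in the contralateral eye, 6.33 in the sham right eye and 4.91 in the sham left eye (edgeR log2 fold change 1.41 ± 0.30, adjusted p = 0.0475). Its other copy atf3.S had 6.26 CPM in the crushed eye against 3.86, 3.52 and 2.79 CPM in the contralateral, sham right and sham left eyes (edgeR adjusted p = 0.74). With the frog pool as a block, jund.L, junb.1 and atf3.L lost the call (edgeR adjusted p of 0.153, 0.129 and 0.215). atf3.L lost it also without the contralateral eye (0.224) and without the sham left eye (0.106), and junb.1 without the contralateral eye (0.0817).

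Of the 14 measured models of this list of AP-1 and related genes, 12 lay above the other eyes, none below, and 6 rose in the edgeR test. Of all genes, 26.1% lay above and 26.5% below. The list's median log2 difference from the mean of the other eyes was 0.69, against 0.01 over all genes. The fos genes, whose products are the usual partners of Jun, were only a little above the rest. fos.S had 54.2 CPM in the crushed eye against 40.6, 47.97 and 41.4 CPM in the contralateral, sham right and sham left eyes (edgeR adjusted p = 0.73). fos.L had 30.4 CPM in the crushed eye against 21.8, 20.01 and 25.1 CPM in the contralateral, sham right and sham left eyes (edgeR adjusted p = 0.703). fosl1, another Fos gene, had few reads: fosl1.S had 66 counts in the crushed eye, against 73 in the contralateral eye, 9 in the sham right eye and 45 in the sham left eye. The members of the small Maf family were split. maff.S lay just above the range at 35.7 CPM in the crushed eye against 34.6, 26.9 and 31.4 CPM in the contralateral, sham right and sham left eyes. mafk.L lay within it at 22.6 CPM in the crushed eye against 21.9, 17.7 and 25.1 CPM in the contralateral, sham right and sham left eyes. The copies of a gene share much of their sequence, so that reads of near-identical stretches may have been divided between them.

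**Figure D2:**
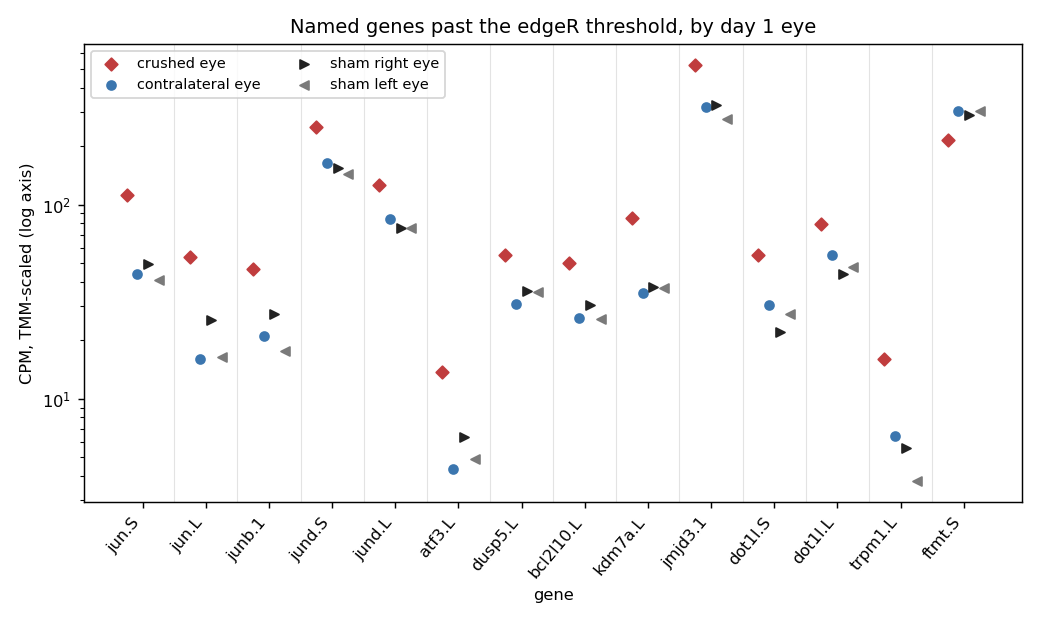
TMM-scaled CPM on a log axis for the 14 genes with a symbol past the edgeR threshold, with 1 marker for each day 1 eye (crushed, contralateral, sham right, sham left, from left to right). The crushed eye is the highest for 13 genes and the lowest for ftmt.S; no error bars are drawn because each eye is 1 library.

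A MAP kinase phosphatase and a BCL2 relative rose with the Jun genes. dusp5.L, whose product removes phosphate from the kinase ERK in the nucleus, had 55.2 CPM in the crushed eye against 30.7, 35.9 and 35.3 CPM in the contralateral, sham right and sham left eyes (edgeR log2 fold change 0.71 ± 0.15, adjusted p = 0.04). bcl2l10.L, named for a relative of the survival protein BCL2, had 50.2 CPM in the crushed eye against 26.1, 30.3 and 25.8 CPM in the contralateral, sham right and sham left eyes (edgeR log2 fold change 0.88 ± 0.16, adjusted p = 0.0066). In both genes the 3 uncrushed eyes lay close together. With the frog pool as a block neither passed (edgeR adjusted p of 0.0689 and 0.0687), and dusp5.L lost the call without the contralateral eye (0.186), without the sham left eye (0.112) and with the copies summed (0.0568), bcl2l10.L without the contralateral eye (0.0643).

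kdm7a.L, jmjd3.1 and both copies of dot1l rose too, and were picked out after their values were seen. kdm7a.L, whose mammalian counterpart encodes a histone demethylase, had 85.2 CPM in the crushed eye, against 35.2 in the contralateral eye, 37.6 in the sham right eye and 36.96 in the sham left eye. The uncrushed eyes lay close together, and the edgeR log2 fold change was 1.22 ± 0.13 (adjusted p = 1.26e-06). jmjd3.1, named for a demethylase that removes a silencing mark from histone H3, had 525 CPM in the crushed eye, against 317 in the contralateral eye, 326 in the sham right eye and 275 in the sham left eye (edgeR log2 fold change 0.78 ± 0.09, adjusted p = 1.01e-05). Both genes stayed higher in the crushed eye in all 9 alternative fits, which hold the same crushed library. The fit with the copies summed merged kdm7a.L with its copy kdm7a.S.

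dot1l encodes a methyltransferase of histone H3. dot1l.S had 55.2 CPM in the crushed eye against 30.3, 22.1 and 27.4 CPM in the contralateral, sham right and sham left eyes (edgeR log2 fold change 1.04 ± 0.16, adjusted p = 0.000941). dot1l.L had 79.6 CPM in the crushed eye against 54.9, 43.8 and 47.7 CPM in the contralateral, sham right and sham left eyes (edgeR log2 fold change 0.70 ± 0.13, adjusted p = 0.0146). Both copies were highest in the crushed eye and next highest in the contralateral eye of the same frogs, and neither passed with the frog pool as a block (edgeR adjusted p of 0.152 and 0.479). trpm1.L, the cation channel gene of bipolar cells that receive input from photoreceptors, had 16.04 CPM in the crushed eye against 6.43, 5.56 and 3.75 CPM in the contralateral, sham right and sham left eyes (edgeR log2 fold change 1.62 ± 0.30, adjusted p = 0.00908). With the block its edgeR adjusted p was 0.485. The other copy, trpm1.S, had 6.26 CPM in the crushed eye against 4.79, 2.39 and 4.55 CPM in the contralateral, sham right and sham left eyes.

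The genes that fell were ftmt.S and an unnamed model. ftmt.S, named for mitochondrial ferritin, an iron store, had 214 CPM in the crushed eye, against 304 in the contralateral eye, 289 in the sham right eye and 304 in the sham left eye (edgeR log2 fold change -0.48 ± 0.10, adjusted p = 0.022). The 3 uncrushed eyes were close together, and the call was lost without the contralateral eye (edgeR adjusted p = 0.128), without the sham left eye (0.286) and with the block (0.123). The model Xelaev18030437m had 8 counts in the crushed eye, against 183 in the contralateral eye, 39 in the sham right eye and 107 in the sham left eye (edgeR log2 fold change -3.95 ± 0.83). Its call was lost without the contralateral eye, without the sham right eye and with the block, and it held in 5 of 9 alternative fits.

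Read in the other libraries of the series, the 26 genes that rose were of 2 kinds: 13 had a level in naive TRAP under 0.5 times that in total retina, called depleted here, and 13 did not. Naive TRAP is RNA recovered by TRAP from unoperated frogs, and total retina is RNA of the whole retina. This ratio compares the scaled level of a gene between these libraries, and is not the fraction of its RNA that sits on tagged ribosomes. The split was made after the values were seen, and neither library entered the day 1 comparison. Of the 13 genes that were not depleted, 12 were over 2-fold higher in the crushed than in the contralateral eye at each of days 3, 7 and 11 (92.3%), and their median log2 ratios were 2.88, 2.15 and 1.83. Of the 12 depleted genes measured at all 3 days, none did, with medians of 0.39, -0.03 and -0.77. Over all genes with 200 counts, the share over 2-fold higher at each later day was 3.89% of 14554 genes that were not depleted and 6.36% of 2360 genes that were.

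jun.L was one of the genes that were not depleted, with crushed over contralateral log2 ratios of 5.27, 5.07 and 4.73 at days 3, 7 and 11 and a naive TRAP over total retina log2 ratio of 1.00. For atf3.L the later ratios were 5.95, 6.44 and 5.68, for jun.S 3.84, 3.85 and 3.89, for junb.1 2.92, 3.29 and 2.38, for jund.S 2.88, 2.15 and 1.83, for dusp5.L 3.03, 2.45 and 1.93 and for bcl2l10.L 2.12, 1.86 and 1.18. The day 1 rise of these genes was therefore smaller than their difference at day 3 in every case named. fos went another way: fos.S had ratios of 1.17, -3.09 and -4.98 and fos.L of -0.0018, -3.94 and -4.98, so that both copies were far lower in the crushed eye at days 7 and 11. These later ratios are of 1 library each and have no test.

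kdm7a.L was one of the depleted genes, with later log2 ratios of 0.74, 0.34 and -0.43 and 46.2 CPM in naive TRAP against 518 CPM in total retina. The later ratios were 0.45, 0.17 and -0.53 for jmjd3.1, 0.39, -0.36 and -0.90 for dot1l.S and -0.51, 0.33 and -0.95 for trpm1.L, and their naive TRAP over total retina log2 ratios were -3.93, -4.34 and -4.18. By day 11 all 4 genes were lower in the crushed than in the contralateral eye. The unnamed model Xelaev18002757m had the same shape, with 317 CPM in the crushed eye against 148, 107 and 103.4 CPM in the contralateral, sham right and sham left eyes at day 1 (edgeR log2 fold change 1.41 ± 0.17, adjusted p = 0.0208). Its naive TRAP over total retina log2 ratio was -4.68.

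**Figure D3:**
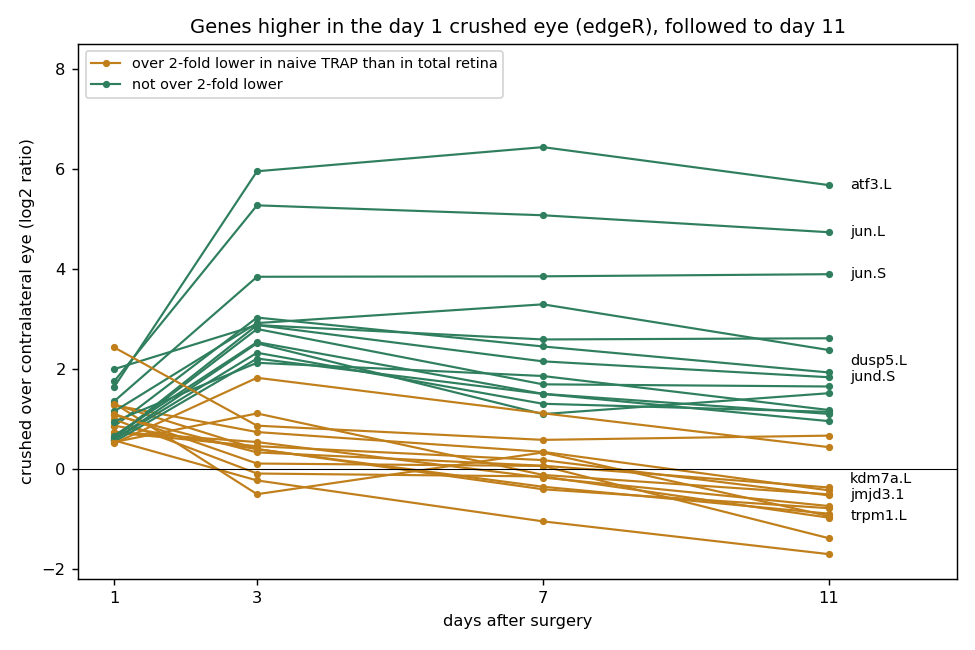
Log2 ratio of the crushed to the contralateral eye at days 1, 3, 7 and 11 for the 26 genes that rose in the day 1 edgeR test, 1 line per gene. Green lines are the 13 genes that were not depleted from TRAP, 12 of which are over 2-fold higher at each later day (jun.L at 4.73 at day 11). Ochre lines are the 13 depleted genes, 1 of them with under 200 counts at day 3, which lie between -1.71 and 0.66 at day 11.

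RNA depleted from TRAP was also a little higher in the crushed eye as a class. Of 3613 depleted genes, 39.5% lay above the other eyes and 13.6% below, with a median log2 difference of 0.15. Of 3797 genes enriched in naive TRAP by more than 2-fold, 16.8% lay above and 39.7% below, with a median of -0.07. The summed level of the depleted genes was 63280 CPM in the crushed eye, against 57930 in the contralateral eye, 63380 in the sham right eye and 56740 in the sham left eye. The sham right eye was thus as high as the crushed one. The part of this shift in the rise of kdm7a.L, jmjd3.1, dot1l and trpm1.L was not tested.

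Among the 59 genes over 2-fold above the other eyes, most had low counts, with a median of 438 over the 4 libraries, and 28 carry a symbol. The gene furthest above was fbn3.L, which encodes a fibrillin of the extracellular matrix, with 175 counts in the crushed eye, against 29 in the contralateral eye, 14 in the sham right eye and 53 in the sham left eye. Its level was 3.798-fold (95% counting interval 2.78 to 5.27) that of the nearest eye, where the interval, like all those that follow, covers counting error only. slc2a2.L, the gene of the glucose transporter GLUT2, had 7.52 CPM in the crushed eye, against 1.91 in the contralateral eye, 1.49 in the sham right eye and 2.498 in the sham left eye (edgeR adjusted p = 0.066). The connective tissue growth factor gene ctgf.L had 7.58 CPM in the crushed eye, against 2.52 in the contralateral eye, 2.63 in the sham right eye and 1.59 in the sham left eye (edgeR adjusted p = 0.101). In each of these 3 genes the crushed eye stood alone above 3 low eyes.

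The photoreceptor guanylate cyclase gene gucy2f.S had 6.79 CPM in the crushed eye against 1.63, 2.45 and 1.01 CPM in the contralateral, sham right and sham left eyes (edgeR adjusted p = 0.0809). xylt2.S, whose product starts proteoglycan sugar chains, had 8.13 CPM in the crushed eye against 2.25, 2.99 and 1.85 CPM in the contralateral, sham right and sham left eyes (edgeR adjusted p = 0.0697). The others named by distance were ahnak-like.S, supv3l1.L, dolk-like.1, zfpm2.L, ldlrad4.L, zfyve28-like.1.L and adamts3.S. Their levels were between 2.28-fold (95% counting interval 1.47 to 3.697) for adamts3.S and 2.87-fold (95% counting interval 1.895 to 4.54) for ahnak-like.S that of the nearest eye. Together with trpm1.L, kdm7a.L and jun.S these are the 15 genes with a symbol furthest above, and those 3 are the ones of the 15 that passed the edgeR test. The cytokine-induced transcription factor gene cebpd.L was a further one over 2-fold above, with 7.42 CPM in the crushed eye against 2.84, 3.405 and 1.83 CPM in the contralateral, sham right and sham left eyes (edgeR adjusted p = 0.31).

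Of the 37 genes over 2-fold above that could be measured in naive TRAP and total retina, 28 (75.7%) were depleted from TRAP, with a median log2 ratio of -2.86. The genes over 2-fold above are sparse, with a median of 438 counts over the day 1 libraries, against 2717 for all genes with 200 counts. A sparse gene may reach 200 counts over a pair only through the library where it is high. The share of 18.6% among all genes with 200 counts is therefore not like for like. At day 3, 10 of the 20 measured (50%) were over 2-fold higher in the crushed than in the contralateral eye, against 7.89% of all such genes. At day 7 these were 17 of 33 (51.5%, against 19.4%), and at day 11 16 of 34 (47.1%, against 18.7%). ctgf.L was one of them, with log2 ratios of 3.49, 2.96 and 1.56. fbn3.L had -0.12, 1.30 and -0.57 and slc2a2.L 0.05, 0.81 and 0.04. Neither of these reached 200 counts over the pair at any later day, so they are not among the measured genes and their ratios rest on few counts. A sparse gene raised in the crushed eye passes the filter of 200 counts over a pair more readily than one that is not. The shares at the later days are therefore not like for like with those of all genes either. Just inside the 2-fold limit were tdrd9.L (log2 distance 1.00, 5.67 CPM in the crushed eye against 2.81, 2.51 and 1.76 CPM in the contralateral, sham right and sham left eyes) and fam92b-like.L, and just outside were the models Xelaev18008957m and Xetrov90005170m.S (both 1.00 after rounding).

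The other copy of a duplicated gene was read beside each. Of the genes with a symbol that rose in the edgeR test, 11 had a measured second copy. For jun, jund and dot1l both copies are among the genes that rose, which leaves 5 copies outside that set, of kdm7a, bcl2l10, trpm1, dusp5 and atf3. All 5 lay above the other eyes, and none of them passed the edgeR test, the lowest adjusted p being 0.0764 for kdm7a.S. Of 8148 genes with 200 counts and a measured second copy, 26.7% of the second copies lay above and 26.1% below. Of the second copies of genes over 2-fold above, 15 were not over 2-fold above themselves, and 6 of the 15 lay above the other eyes and 2 below. Of 11 second copies of genes over 2-fold below, 2 lay above and 1 below.

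The genes over 2-fold below the other eyes were sparse, with a median of 287 counts over the 4 libraries and none with a symbol past the edgeR threshold. mbtd1.L, the furthest below of those with a symbol, had 18 counts in the crushed eye, against 88 in the contralateral eye, 22 in the sham right eye and 100 in the sham left eye. At equal depth the lowest of the uncrushed eyes was 3.71-fold (95% counting interval 1.899 to 7.34) above the crushed one. scyl2.L had 50 counts in the crushed eye, against 193 in the contralateral eye, 52 in the sham right eye and 199 in the sham left eye. The sham right eye, with the fewest reads in all, had about as many counts as the crushed eye in both. foxj1.2.S, a copy of the gene for a regulator of motile cilia, had 43 counts in the crushed eye, against 213 in the contralateral eye, 36 in the sham right eye and 180 in the sham left eye. The neuropeptide Y receptor gene npy1r.S had 111 counts in the crushed eye, against 275 in the contralateral eye, 81 in the sham right eye and 310 in the sham left eye.

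The others named by distance were nudt12-like.S, spata17.L, armc4.S, sertad4-like.L, b3galt2-like.2.L, cldn4.L, rnf180.1, pebp4-like.L, sod3.L, casp1.L and boc.S. In these the lowest uncrushed eye was between 2.23-fold (95% counting interval 1.51 to 3.37) for boc.S and 3.11-fold (95% counting interval 2.18 to 4.53) for nudt12-like.S above the crushed eye. Of the genes over 2-fold below, 1 of 7 measured at day 3, none of 15 at day 7 and 1 of 18 at day 11 were over 2-fold lower in the crushed than in the contralateral eye. These shares were 14.3%, 0% and 5.56%, against 5.51%, 15.2% and 19.5% of all genes. Over 2-fold higher were 1, 8 and 9 of them, or 14.3%, 53.3% and 50%, against 7.89%, 19.4% and 18.7% of all genes. Most genes of this sparse set had too few counts over a pair to be measured at a later day. A sparse gene raised in the crushed eye passes that count filter more readily than one that is not. The higher and lower shares are therefore not like for like with those of all genes, and no reversal was read from them. cldn4.L, a claudin gene of epithelial junctions, had later log2 ratios of 3.30, 5.61 and 5.84. Just inside the limit were ccdc102a.S and kirrel.S (log2 distances 1.01 and 1.00), and just outside LOC100497276-like.L and LOC100494478.L (both 0.99).

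Sterol synthesis genes had, with the AP-1 list, the largest share of members above the other eyes. Among all genes, 26.1% lay above and 26.5% below. Of 21 measured, 18 (85.7%) lay above and 1 below, with a median log2 difference of 0.53, and none passed the edgeR test. cyp51a1.L, the gene of lanosterol demethylase, had 58.97 CPM in the crushed eye, against 27.1 in the contralateral eye, 41.6 in the sham right eye and 35.5 in the sham left eye (edgeR adjusted p = 0.0697, and 0.00986 with the frog pool as a block). idi1.L, for an isomerase early in the pathway, had 81.8 CPM in the crushed eye against 47.8, 62.8 and 61.2 CPM in the contralateral, sham right and sham left eyes (edgeR adjusted p = 0.244, and 0.0442 with the block). The sham right eye was above the sham left eye for these genes too, with a median log2 difference of 0.34, against 0.70 between the crushed and the contralateral eye. The lowest value of msmo1.1, a sterol oxidase gene, was in the contralateral eye, with 6.69 CPM in the crushed eye against 0.929, 4.003 and 3.94 CPM in the contralateral, sham right and sham left eyes. The 1 member below was fdps.S, the most abundant of the list by mean deposited TPM, though idi1.L had more CPM. It had 58.5 CPM in the crushed eye against 61.4, 69.8 and 74.2 CPM in the contralateral, sham right and sham left eyes. The crushed over contralateral log2 ratio of cyp51a1.L was -0.22 at day 3, 0.12 at day 7 and 1.79 at day 11.

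Of the 33 stress kinase and MAP kinase phosphatase genes, 20 (60.6%) lay above and 5 below (median 0.15), and dusp5.L alone rose in the edgeR test. All genes had 26.1% above and 26.5% below. The phosphatase genes for JNK and p38 were among the higher ones of the list. dusp10.2.L had 20.6 CPM in the crushed eye against 11.15, 12.2 and 12.4 CPM in the contralateral, sham right and sham left eyes (edgeR adjusted p = 0.352). dusp16.S had 19.9 CPM in the crushed eye against 13.5, 11.7 and 10.4 CPM in the contralateral, sham right and sham left eyes (edgeR adjusted p = 0.453). The ERK phosphatase gene dusp6.L was on the other side, with 27.8 CPM in the crushed eye against 35.4, 31.5 and 32.9 CPM in the contralateral, sham right and sham left eyes (edgeR adjusted p = 0.899). Genes of the kinases themselves, such as map2k4.L with 76.6 CPM in the crushed eye against 73.8, 72.1 and 75.7 CPM in the contralateral, sham right and sham left eyes, were nearly level.

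Of the 24 measured genes of cytokine receptors, STAT and SOCS feedback, 13 (54.2%) lay above and 3 below (median 0.36), and none passed the edgeR test. Among all genes, 26.1% lay above and 26.5% below. The cytokine list has 42 models, and 18 had fewer than 200 counts. socs3.L, the feedback inhibitor of STAT signals, had 152 counts in the crushed eye, against 115 in the contralateral eye, 25 in the sham right eye and 11 in the sham left eye. socs3.S had 53 counts in the crushed eye, against 0 in the contralateral eye, 14 in the sham right eye and 18 in the sham left eye, so the crushed eye was the highest for both copies at very low counts. The model socs3-like.1.L is not in the list, which leaves out models named -like. It was over 2-fold above, with 7.81 CPM in the crushed eye against 3.02, 3.64 and 2.34 CPM in the contralateral, sham right and sham left eyes (edgeR adjusted p = 0.322). lep.S, a copy of the leptin gene, had 25 counts in the crushed eye, against 14 in the contralateral eye, 0 in the sham right eye and 0 in the sham left eye. Its other copy lep.L went the other way, with 0 counts in the crushed eye, against 11 in the contralateral eye, 0 in the sham right eye and 0 in the sham left eye. The leptin receptor gene lepr.L had 41 counts in the crushed eye, against 32 in the contralateral eye, 5 in the sham right eye and 31 in the sham left eye. The kinase gene jak2.1 lay below, with 3.799 CPM in the crushed eye against 8.84, 4.66 and 6.400 CPM in the contralateral, sham right and sham left eyes (edgeR adjusted p = 0.767).

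**Figure D4:**
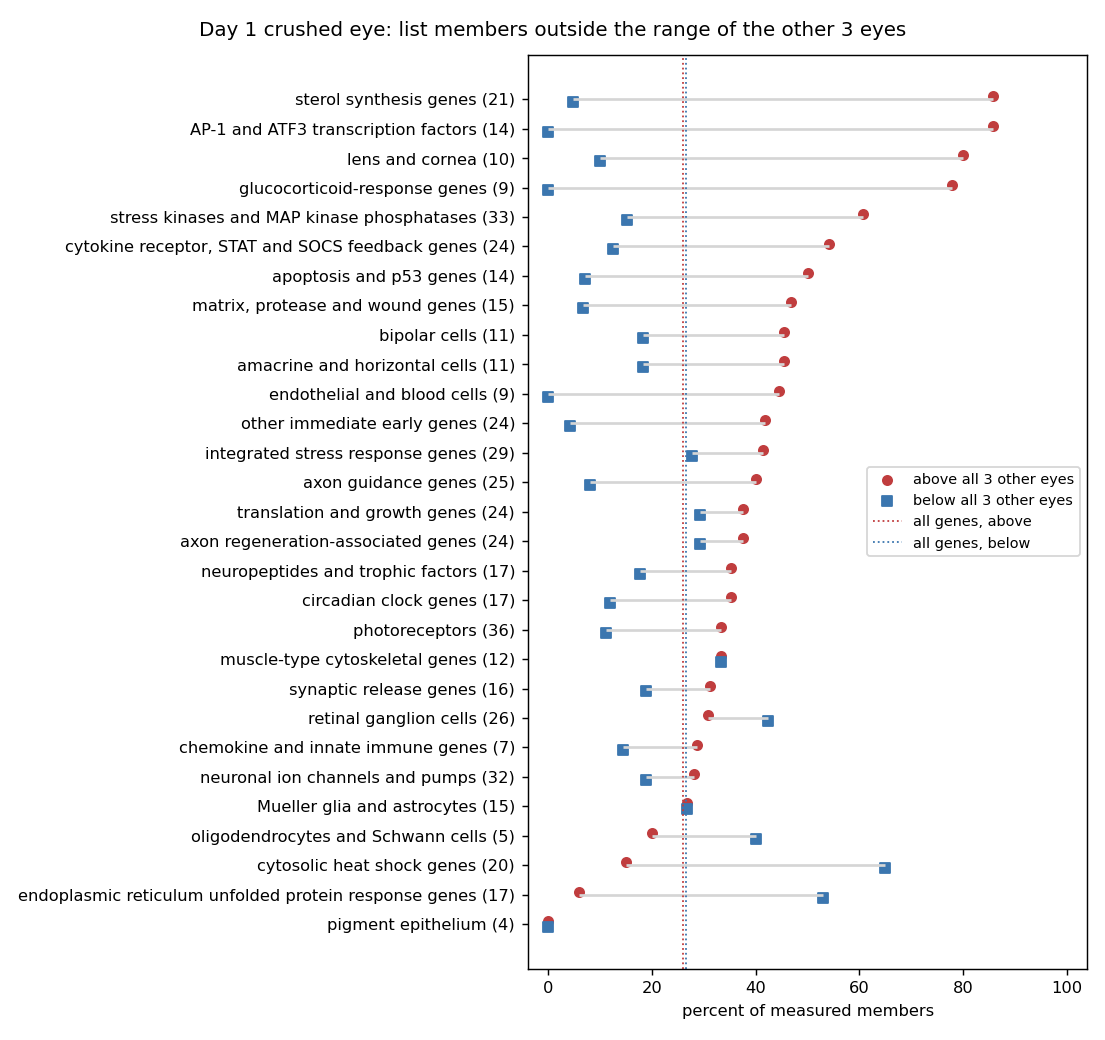
For each gene list with over 1 measured member (number in brackets), red circles give the percent of members above and blue squares the percent below all 3 other day 1 eyes; dotted lines mark all genes (26.1% above, 26.5% below). AP-1 and sterol synthesis genes have 85.7% above, and cytosolic heat shock genes 65.0% below.

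In both chaperone lists more members lay below the other eyes than above. Of 20 cytosolic heat shock genes, 13 (65.0%) lay below and 3 above, with a median log2 difference of -0.10. Over all genes, 26.5% lay below and 26.1% above. The heat shock list summed to 3648 CPM in the crushed eye. The contralateral, sham right and sham left eyes had 3587, 3898 and 3644 CPM. The most abundant member by mean deposited TPM, hsp90ab1.S, had 1287 CPM against 1116, 1290 and 1147 CPM in these eyes, within the range. hsf1.S, furthest outside the range, lay above, at 5.85 CPM against 1.79, 4.54 and 4.45 CPM. Of 17 genes of the unfolded protein response of the endoplasmic reticulum, 9 (52.9%) lay below and 1 above, with a median of -0.13. None passed the edgeR test. hspa5.S, a copy of the gene for the reticulum chaperone BiP, had 94.9 CPM in the crushed eye, against 121 in the contralateral eye, 155 in the sham right eye and 136 in the sham left eye (edgeR adjusted p = 0.0771). The oxidoreductase gene pdia6.S had 30.8 CPM in the crushed eye against 40.6, 44.1 and 49.2 CPM in the contralateral, sham right and sham left eyes (edgeR adjusted p = 0.43). hspe1.L is counted in the cytosolic list, although its product is a mitochondrial chaperonin. It had 71.05 CPM in the crushed eye against 91.8, 90.03 and 89.96 CPM in the contralateral, sham right and sham left eyes (edgeR log2 fold change -0.35 ± 0.12). The crushed eye was the lowest in hspa5.S, pdia6.S and hspe1.L, by small amounts. By day 11 hspa5.S had a crushed over contralateral log2 ratio of 1.22.

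The integrated stress response and axon regeneration lists had medians near 0 at day 1. Their shares stand beside 26.1% above and 26.5% below over all genes. Of 29 integrated stress response genes, which serve amino acid supply and the response to blocked translation, 12 (41.4%) lay above and 8 (27.6%) below, with a median of 0.07. ddit3.L, the gene of the factor CHOP, had 15.7 CPM in the crushed eye against 13.6, 11.7 and 11.6 CPM in the contralateral, sham right and sham left eyes (edgeR adjusted p = 0.912). asns.L, for asparagine synthetase, had 14.98 CPM in the crushed eye against 15.8, 15.5 and 15.5 CPM in the contralateral, sham right and sham left eyes (edgeR adjusted p = 0.994). Their day 3 log2 ratios were 5.05 and 3.92. Of 24 axon regeneration-associated genes, 9 lay above and 7 below (median 0.01). Both copies of sox11, a transcription factor gene of growing neurons, were above. sox11.L had 126 CPM in the crushed eye against 97.2, 110.5 and 105 CPM in the contralateral, sham right and sham left eyes (edgeR adjusted p = 0.673). sox11.S had 65.8 CPM in the crushed eye against 49.5, 51.4 and 46.5 CPM in the contralateral, sham right and sham left eyes (edgeR adjusted p = 0.491). Both copies of basp1, a growth cone protein gene, were below, with basp1.S at 1401 CPM in the crushed eye against 1614, 1506 and 1585 CPM in the contralateral, sham right and sham left eyes.

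Of 24 other immediate early genes, 10 (41.7%) lay above and 1 below (median 0.36), and none passed the edgeR test. egr1.L, a zinc finger factor gene of this kind, had 11.7 CPM in the crushed eye against 13.7, 12.6 and 8.81 CPM in the contralateral, sham right and sham left eyes, within the range. The synaptic gene arc.L had 5.41 CPM in the crushed eye against 3.47, 3.64 and 3.405 CPM in the contralateral, sham right and sham left eyes. Of 14 apoptosis and p53 genes, 7 lay above and 1 below (median 0.18). gadd45g.L, a growth arrest gene, had 11.20 CPM in the crushed eye against 4.54, 8.902 and 6.88 CPM in the contralateral, sham right and sham left eyes (edgeR adjusted p = 0.71). Of 9 glucocorticoid-response genes, 7 lay above and none below (median 0.29, with 0.21 between the sham right and sham left eyes). Of 15 matrix, protease and wound genes measured, out of 34 models, 7 lay above and 1 below (median 0.32, with 0.47 between the sham eyes). Muscle-type cytoskeletal genes had 4 of 12 (33.3%) above and 4 below. Chemokine and innate immune genes had 2 of 7 (28.6%) above and 1 below, and circadian clock genes 6 of 17 (35.3%) above and 2 below. The shares over all genes, for every list of this paragraph, were 26.1% above and 26.5% below.

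Lists of ganglion cell function had medians near 0 or a little above. Synaptic release genes had 5 of 16 (31.2%) above and 3 (18.8%) below (median 0.04). Neuronal ion channel and pump genes had 9 of 32 (28.1%) above and 6 (18.8%) below (median 0.01). Of all genes, 26.1% lay above and 26.5% below, so the shares above were near that of all genes. Axon guidance genes had 10 of 25 (40%) above and 2 (8%) below (median 0.12). Translation and growth genes had 9 of 24 (37.5%) above and 7 (29.2%) below (median 0.02). Neuropeptide and trophic factor genes had 6 of 17 measured (35.3%) above and 3 (17.6%) below (median 0.19), out of 34 models. No member of these lists passed the edgeR test. 1 ion channel gene, hcn2.L, was over 2-fold below, with 1.71 CPM in the crushed eye against 3.66, 4.72 and 4.04 CPM in the contralateral, sham right and sham left eyes (edgeR adjusted p = 0.628). Its later log2 ratios were -3.93, -1.22 and -1.54, those of days 7 and 11 from under 200 counts over the pair. Among ganglion cell markers, sncg.L, for gamma-synuclein, had 525 CPM in the crushed eye against 628, 602 and 649 CPM in the contralateral, sham right and sham left eyes (edgeR adjusted p = 0.56). The transcription factor gene pou4f1.2.S had 312 CPM in the crushed eye against 262, 286 and 282 CPM in the contralateral, sham right and sham left eyes (edgeR adjusted p = 0.836). The markers thus did not share a direction. Fewer ganglion cells and less RNA per cell cannot be told apart in such pooled samples.

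Markers of cell types other than ganglion cells were measured in the same libraries, and their part in the results was not tested. Lens and cornea markers had 8 of 10 measured members above and 1 below (median 0.69), against 26.1% and 26.5% of all genes. Their summed level over 24 models was 52.1 CPM in the crushed eye, against 38.1, 38.2 and 33.5 CPM in the contralateral, sham right and sham left eyes. The crystallin gene cryba1.L had 17.1 CPM in the crushed eye against 10.02, 11.7 and 8.64 CPM in the contralateral, sham right and sham left eyes. krt12.S, krt5.3.L and krt5.3.S were at 0 in all 4. Other sparse keratin models had no shared direction. krt12.L had 20 counts in the crushed eye against 0, 1 and 1 in the contralateral, sham right and sham left eyes, and krt5.6.S 10 against 0, 0 and 0. krt5.6.L had 0 against 2, 0 and 16 in the same order, and krt5.7.L 22 against 43, 11 and 6. Blood and endothelial markers had 4 of 9 above and none below, and summed to 75.3 CPM in the crushed eye, against 56.5, 49.8 and 49.8 CPM in the contralateral, sham right and sham left eyes. The globin gene hbg1.L had 10.1 CPM in the crushed eye against 3.88, 4.54 and 2.19 CPM in the contralateral, sham right and sham left eyes. These sums were highest in the crushed eye.

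Photoreceptor markers had 12 of 36 (33.3%) above and 4 (11.1%) below, against 26.1% and 26.5% of all genes. Their summed level of 3190 CPM in the crushed eye lay within the range of the other eyes. These had 2897, 3512 and 2614 CPM in the contralateral, sham right and sham left eyes. Bipolar cell markers, trpm1.L among them, summed to 376 CPM in the crushed eye against 382, 368 and 380 CPM in the contralateral, sham right and sham left eyes, with 5 of 11 (45.5%) above and 2 below. That sum holds isl1.L and isl1.S, which are ganglion cell markers as well, at 81.1 and 45.1 CPM in the crushed eye, and their naive TRAP over total retina log2 ratios were 2.15 and 2.12. Amacrine and horizontal cell markers summed to 177 CPM in the crushed eye against 162, 162 and 154 CPM in the contralateral, sham right and sham left eyes (5 of 11 above, 2 below). Markers of Mueller glia and astrocytes summed to 334 CPM in the crushed eye against 334, 322 and 294 CPM in the contralateral, sham right and sham left eyes (4 of 15 above, 4 below). Pigment epithelium markers summed to 17.1 CPM in the crushed eye against 24.4, 14.2 and 12.9 CPM in the contralateral, sham right and sham left eyes, with 4 of 13 models at 0 in all 4 eyes. Markers of oligodendrocytes and Schwann cells summed to 669 CPM in the crushed eye against 690, 720 and 769 CPM in the contralateral, sham right and sham left eyes. Of the 10 models of leukocyte and microglia markers 1 had 200 counts, and they summed to 8.601 CPM in the crushed eye against 8.63, 10.1 and 6.95 CPM in the contralateral, sham right and sham left eyes.

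Genes that set the crushed eye apart later lay to the same side more often than all genes at day 1. Of 816 genes over 2-fold higher in the crushed than in the contralateral eye at each of days 3, 7 and 11, 775 could be measured at day 1. Of these, 319 (41.2%) lay above the other day 1 eyes and 122 (15.7%) below, against 26.1% and 26.5% of all genes. Over 2-fold above were 9 of the 775, against 59 of all 21673 genes (0.272%). The median log2 difference of the 775 genes at day 1 was 0.12, with 0.06 between the sham right and the sham left eye. They include 12 of the 26 genes that rose in the edgeR test. Of 445 genes over 2-fold lower at each later day, 170 (38.2%) lay below at day 1 and 69 (15.5%) above, with a median of -0.07, and none was over 2-fold below. With 1 uncrushed eye left out, between 47.5% and 50.6% of the first set lay above, against 33% to 35.1% of all genes, and between 43.8% and 49.0% of the second lay below, against 33.2% to 35.7% of all genes.

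The genes furthest higher at the later days, ranked by their smallest later ratio, had few counts at day 1. Such a ranking favours genes with a low level in uncrushed eyes, so the few counts follow in part from the choice. Beside socs3, lep and lepr, given above, upp2.L, a uridine phosphorylase gene, had 20 counts in the crushed eye, against 45 in the contralateral eye, 5 in the sham right eye and 25 in the sham left eye. Its later log2 ratios were 6.21, 7.22 and 8.02. btg5.L, of a family of antiproliferative genes, had 48 counts in the crushed eye, against 29 in the contralateral eye, 5 in the sham right eye and 9 in the sham left eye, with later ratios of 6.72, 8.81 and 6.07. The small heat shock gene hspb1.L had 7 counts in the crushed eye, against 50 in the contralateral eye, 0 in the sham right eye and 24 in the sham left eye, with later ratios of 6.00, 6.68 and 6.41. The filamin gene flnc.L had 10 counts in the crushed eye, against 0 in the contralateral eye, 2 in the sham right eye and 15 in the sham left eye, with later ratios of 6.89, 6.27 and 5.87. Against the contralateral eye, the level in the crushed eye was 0.49-fold (95% counting interval 0.274 to 0.846) for upp2.L and 0.154-fold (0.059 to 0.342) for hspb1.L. This day 1 ratio lay on the other side from the later ones, but it rests on the contralateral eye alone. At equal depth the sham right eye had a lower level than the crushed eye for both genes, which puts them within the range. With 5 and 0 counts in the sham right eye, this order is not resolved, and their place in the range is uncertain. For btg5.L the level in the crushed eye was 1.82-fold (1.127 to 2.999) that of the contralateral eye, the nearest. For flnc.L the contralateral eye had 0 counts, so the crushed eye was the higher of the pair and the ratio has no finite value. Against the sham left eye, the highest of the uncrushed eyes, the crushed eye was 0.767-fold (0.308 to 1.825), a difference not detectable at this depth. On the low side, hapln4.L, a gene of the matrix around axons, had 10.2 CPM in the crushed eye against 14.1, 13.4 and 13.6 CPM in the contralateral, sham right and sham left eyes, below the other eyes by 0.39 on the log2 scale. Its later ratios were -3.47, -7.89 and -7.88. ppp1r16b.S had 30.00 CPM in the crushed eye against 41.3, 35.1 and 29.9 CPM in the contralateral, sham right and sham left eyes and later ratios of -2.44, -3.90 and -4.11. The BMP antagonist gene nog.L had 7.07 CPM in the crushed eye against 7.68, 7.65 and 7.97 CPM in the contralateral, sham right and sham left eyes and later ratios of -2.35, -4.80 and -4.76. sostdc1.S, another BMP antagonist gene, had 7.14 CPM in the crushed eye against 8.06, 12.2 and 5.61 CPM in the contralateral, sham right and sham left eyes, within the range, and later ratios of -2.30, -4.80 and -5.42.

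**Figure D5:**
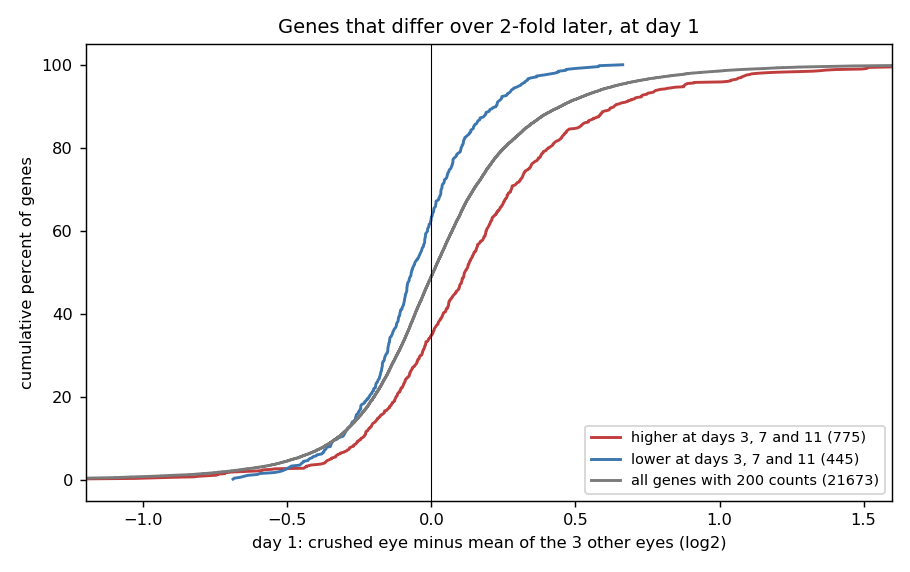
Cumulative percent of genes (y axis) by their day 1 log2 difference between the crushed eye and the mean of the 3 other day 1 eyes (x axis). The red line of the 775 genes higher at days 3, 7 and 11 (median 0.12) lies to the right of all 21673 genes in grey, and the blue line of the 445 genes lower later (median -0.07) to the left.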

How the data were processed

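TRAP libraries were made with poly(A) selection, per the labels' protocols, and the submitters' processing notes name RSEM 1.2.21, Bowtie2 2.2.5 and Trimmomatic 0.33. Build and strand: not given in the sources used here. Per the file headers, the authors deposited an expected count (estimated by RSEM; 57.9% of values whole within 0.001) for 45099 gene models, of which 17409 carry a symbol. Expected counts were rounded. The deposited TPM values gave only a mean level per gene over the day 1 libraries, which picked the most abundant member of each list. Deposited FPKM values were not used. Homeolog copies (.L, .S) were kept apart.

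Levels of day 1 used TMM factors over the 4 day 1 libraries. Ratios of later days and of naive TRAP over total retina used factors over all 12, and all log2 values a prior count of 2. Shares and medians took genes with at least 200 counts over the libraries compared. Ratios of single named genes were given without that floor. Testing used edgeR 4.0.16 (quasi-likelihood F test) in R 4.3.3 (filterByExpr, robust, Benjamini-Hochberg, threshold 0.05), after a check on simulated data. Errors are approximate standard errors, worked back as the absolute log2 fold change over the square root of the F statistic. Alternatives were other scalings, filters and prior counts, copies summed, 1 uncrushed eye left out, DESeq2 1.42.0 and the frog pool as a block; both eyes of a pair come from the same frogs, per the protocol. Named genes are the 15 with a symbol furthest above and below, up to 3 outlying members and the most abundant member of a list, and the 8 highest and 4 lowest later genes; the genes with a symbol past the edgeR threshold, and other list members, were named after their values were seen. Members and lists were chosen with earlier results of these data known. Models named -like were left out of the lists. Intervals are exact binomial and cover counting error only.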

Additional observations from a re-analysis of the deposited data

Results flagged for a closer look

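For 2 unnamed gene models past the edgeR threshold at day 1, the crushed over contralateral ratio had the opposite sign at day 11, by more than 2-fold on each side. Xelaev18002757m had a log2 ratio of 1.0999 at day 1 and -1.39 at day 11. Xelaev18030437m had -4.04 at day 1 and 1.49 at day 11. Of 9 alternative fits, Xelaev18002757m kept its call in 8 and Xelaev18030437m in 5. Each ratio compares 1 pair of libraries, and the difference between the days was not tested.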

How the results depend on the processing

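Direction held for every gene past the edgeR threshold in each alternative that gave it a value, and 45 of those 247 values missed the threshold. The count of genes that rose or fell in edgeR was 61 and 11 with no filter on low counts, 17 to 47 and 1 to 2 with 1 uncrushed eye left out, 17 and 0 with the frog pool as a block, and 11 fell by DESeq2. Genes over 2-fold above and below the other eyes numbered 1382 and 549 with no filter (9128 above at all), 26 and 5 with 500 counts, and 132 to 182 and 94 to 121 with 1 eye left out, where the smaller range admits more genes. Without the filter, 3609 and 2612 genes were over 2-fold higher and lower in the crushed than in the contralateral eye, and 3535 and 2853 between sham right and left.

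With 500 counts, the genes over 2-fold above had 6, 8 and 7 members over 2-fold higher at days 3, 7 and 11, medians of 3.04 and 2.62 at days 3 and 7 and a naive TRAP over total retina median of -3.49; those below had 0 over 2-fold lower at days 3 and 11. The genes lower at each later day then numbered 270, with 109 below at day 1. With unscaled totals, which move the median of all genes to 0.04, the later genes' medians at day 1 were 0.17 and -0.026, and the ganglion cell markers' median 0.0267. The causes were not tested. Leaving out an eye for the later genes was chosen after seeing the data. Promoter motifs were not run. Depth of the sham right eye limits genes with few counts, and with 1 library per condition no difference has a replicate check.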
